A study of Mus musculus with 21 samples.

Results

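The collagen chain genes were followed in 21 mouse mammary tumours. They were every gene of the deposited count table whose symbol has the form of Col, a number, the letter a and a number, which gave 44 of 24028 genes. They were divided into 11 fibrillar collagens, 6 basement membrane collagens, which are the chains of type IV, and 27 other collagens. All tumours were from WAP-Cre/PIK3CA-H1047R mice, whose mammary epithelium expresses the Cre recombinase from the promoter of a milk protein gene and, through it, a mutated catalytic PI3K-alpha subunit, so the vehicle animals carried the mutant allele too. The relapse group and the stable group, of 7 tumours each, came from animals given BYL719 (alpelisib, which inhibits PI3K-alpha), and the vehicle group of 7 tumours came from animals given DMSO. In the design text a responding group stands beside the stable one, and whether responding is what the sample labels call relapse is not stated; the sample labels are followed here. They do not give the animals' age, the dose or the length of treatment. The RNA was extracted from whole ground tumours, so fewer cells of a type and less RNA per cell cannot be told apart.

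Collagens are proteins of 3 chains wound into a triple helix, and many types need chains from more than 1 gene. Fibrillar collagens assemble into the banded fibres that carry tension in connective tissue, type IV collagen forms the sheet-like network under epithelia, around smooth muscle and around vessels, and the other types link, decorate or anchor these structures or span the cell membrane. In mammary tumours, fibroblasts are known as the main source of types I and III, while epithelial, myoepithelial and vascular cells also deposit type IV.

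Total counts lay between 17722622 and 21431465 in relapse, 13337848 and 24648463 in stable, and 21043399 and 24873844 in vehicle tumours. Levels are CPM after TMM scaling (counts of a gene relative to the scaled library total). The words called, rose and fell stand for an edgeR quasi-likelihood p under 0.05 after Benjamini-Hochberg adjustment over 15792 genes, with n = 7 tumours a group. Vehicle 2, 6 and 7 stood apart from the other 18 tumours. With the collagens left out, they lay at 77, 78.2 and 60.1 on the first principal component of the 1000 most variable genes, where stable 1 came next at 14.7. Their summed levels of 9 basal and myoepithelial markers were 15124, 19977 and 8644 CPM. The same sum was 884 to 2104 CPM in relapse, 226 to 1369 CPM in stable and 1175 to 4074 CPM in the other vehicle tumours. Most counts of calls, medians and fold changes of described genes are therefore given with and without these 3 tumours. The counts of marker calls are given with all tumours only, and the part that the markers play in any collagen difference was not tested. Of the 9 markers, 6 fell in relapse and 6 in stable tumours, beside 5.8% and 8.16% of all genes.

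Of the 44 collagen genes, 43 passed the filter on low counts. The exception was Col22a1, a fibril-associated collagen, with 0 to 15 reads a tumour. Together the collagens took 0.464%, 0.791% and 1.67% of all counts in relapse tumours (lowest, median and highest of the group). The shares were 0.518%, 0.632% and 1.37% in stable and 0.354%, 0.757% and 1.45% in vehicle tumours, so the 3 groups overlapped widely. Divided by the gene width that the table gives, the highest mean level over all tumours was that of Col1a1, at 168 CPM per kilobase, followed by Col3a1 at 130, Col12a1 at 127, Col1a2 at 93.6, Col4a1 at 74.5 and Col5a2 at 60.5 CPM per kilobase. These are the main fibrillar chains, the fibril-coating type XII and the most common type IV chain. The standard deviations within groups of 7 tumours were wide on the same scale. Col1a1 was at 210 ± 122 CPM per kilobase in relapse, 174 ± 141 in stable and 120 ± 73.3 in vehicle tumours, and Col3a1 was at 135 ± 50.9, 134 ± 118 and 120 ± 120, so that these neighbours in the order did not differ beyond their spread.

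**Figure D1:**
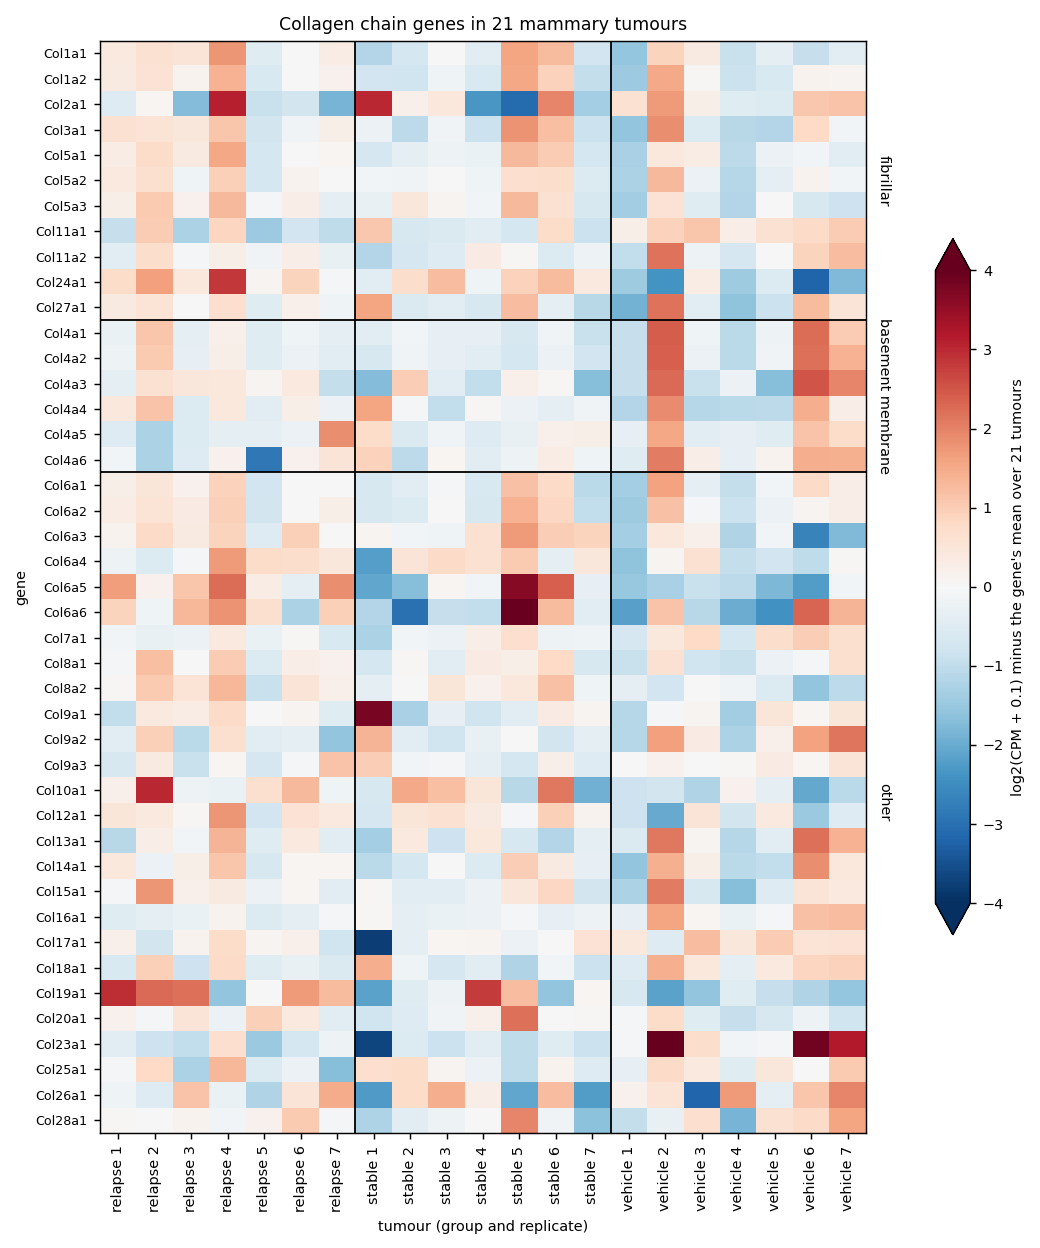
Levels of the 43 collagen genes that passed the filter, one row a gene, in relapse, stable and vehicle tumours from left to right; colour is log2(CPM + 0.1) minus the gene's mean over 21 tumours, cut off at 4 in either direction. Vehicle 2, 6 and 7 are red across all 6 basement membrane rows and at Col23a1, and relapse 4 and stable 5 are red across most fibrillar rows.

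The plot of all collagens by tumour shows that much of their variation lay between single tumours and not between groups. Vehicle 2 held the highest level of 12 of the 43 genes, relapse 4 of 9 genes, stable 5 of 7 genes and vehicle 6 of 4 genes. The lowest level was in vehicle 1 for 12 genes, in stable 1 for 8 genes and in vehicle 4 for 6 genes. Within the vehicle group, tumours 2, 6 and 7 all lay above the other 4 in 23 genes, among them all 6 type IV chains, and all lay below the other 4 in 2 genes, Col24a1 and Col8a2. The summed level of 12 fibroblast markers was also highest in relapse 4, at 1353 CPM, and in stable 5, at 1212 CPM, and it lay at 251 to 904 CPM in every other tumour.

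Between relapse and vehicle tumours 7 of the 43 genes were called, which is 16.3%, beside 11.2% of all genes tested. Col24a1, Col6a5, Col8a2, Col10a1 and Col19a1 rose, and Col16a1 and Col23a1 fell. Between stable and vehicle tumours 7 were also called, again 16.3%, beside 15.1% of all genes tested. Col24a1, Col6a3 and Col6a5 rose, and Col4a1, Col4a2, Col16a1 and Col23a1 fell. The 4 genes called in both comparisons were Col24a1, Col6a5, Col16a1 and Col23a1; both comparisons use the same vehicle tumours. The members' share of calls was therefore near the background in stable tumours and 16.3% beside 11.2% in relapse tumours. Without vehicle 2, 6 and 7, edgeR called 0 of 43 in either comparison, beside 3.28% of all genes for relapse and 5.27% for stable, with 19 and 13 members (44.2% and 30.2%, beside 21.1% and 22.9% of all genes) at an unadjusted p under 0.05. Against all 7 vehicle tumours, DESeq2 called 10 members in relapse and 12 in stable (23.3% and 27.9%, beside 16.4% and 20.6% of all genes). Beyond those of edgeR these were Col4a6, Col5a3 and Col12a1 in relapse and Col8a2, Col10a1, Col11a2, Col13a1 and Col19a1 in stable tumours.

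The calls also changed in fits that take account of the codes in the sample titles. What the code stands for is not stated. With the counts of each code summed, Col16a1, Col23a1 and Col24a1 were called in relapse and Col23a1 in stable tumours (6.82% and 2.27% of members, beside 5.87% and 3.64% of all genes). With the code as a random effect in limma voom, the 7 calls of edgeR were down to Col24a1 in relapse, where Col11a1 and Col6a3 were called too, and to Col6a3, Col23a1 and Col24a1 in stable tumours (6.98% of members in each, beside 8.14% and 11.2% of all genes). With quality weights in limma voom, Col24a1 in relapse and Col6a3 and Col24a1 in stable tumours were called of the 7, next to 4 and 3 members that edgeR had not called (11.6% of members in each, beside 13.1% and 19% of all genes). This fit has no term for the code. The random effect fit estimated a correlation of -0.0397 between tumours of a code. Both voom fits also differ from edgeR in method, so their changes in calls cannot be laid to the code.

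Leaving out vehicle 2, 6 and 7 also moved the centre of the whole family. The median log2 fold change of the 43 genes was -0.07 for relapse and -0.21 for stable against all vehicle tumours, with 21 and 20 genes above 0. Against the remaining 4 vehicle tumours it was 0.80 and 0.71, with 35 genes above 0 in each comparison. The medians of all genes tested stayed near 0, at -0.02 and -0.0048 with all tumours and at 0.023 and 0.051 without the 3. The class medians were 0.26 (fibrillar), -1.06 (basement membrane) and -0.0055 (other) in relapse and 0.15, -1.20 and -0.18 in stable tumours against all vehicle tumours, in the same order of classes. Without the 3 tumours they were 1.03, 0.59 and 0.71 in relapse and 0.83, 0.29 and 0.62 in stable tumours.

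**Figure D2:**
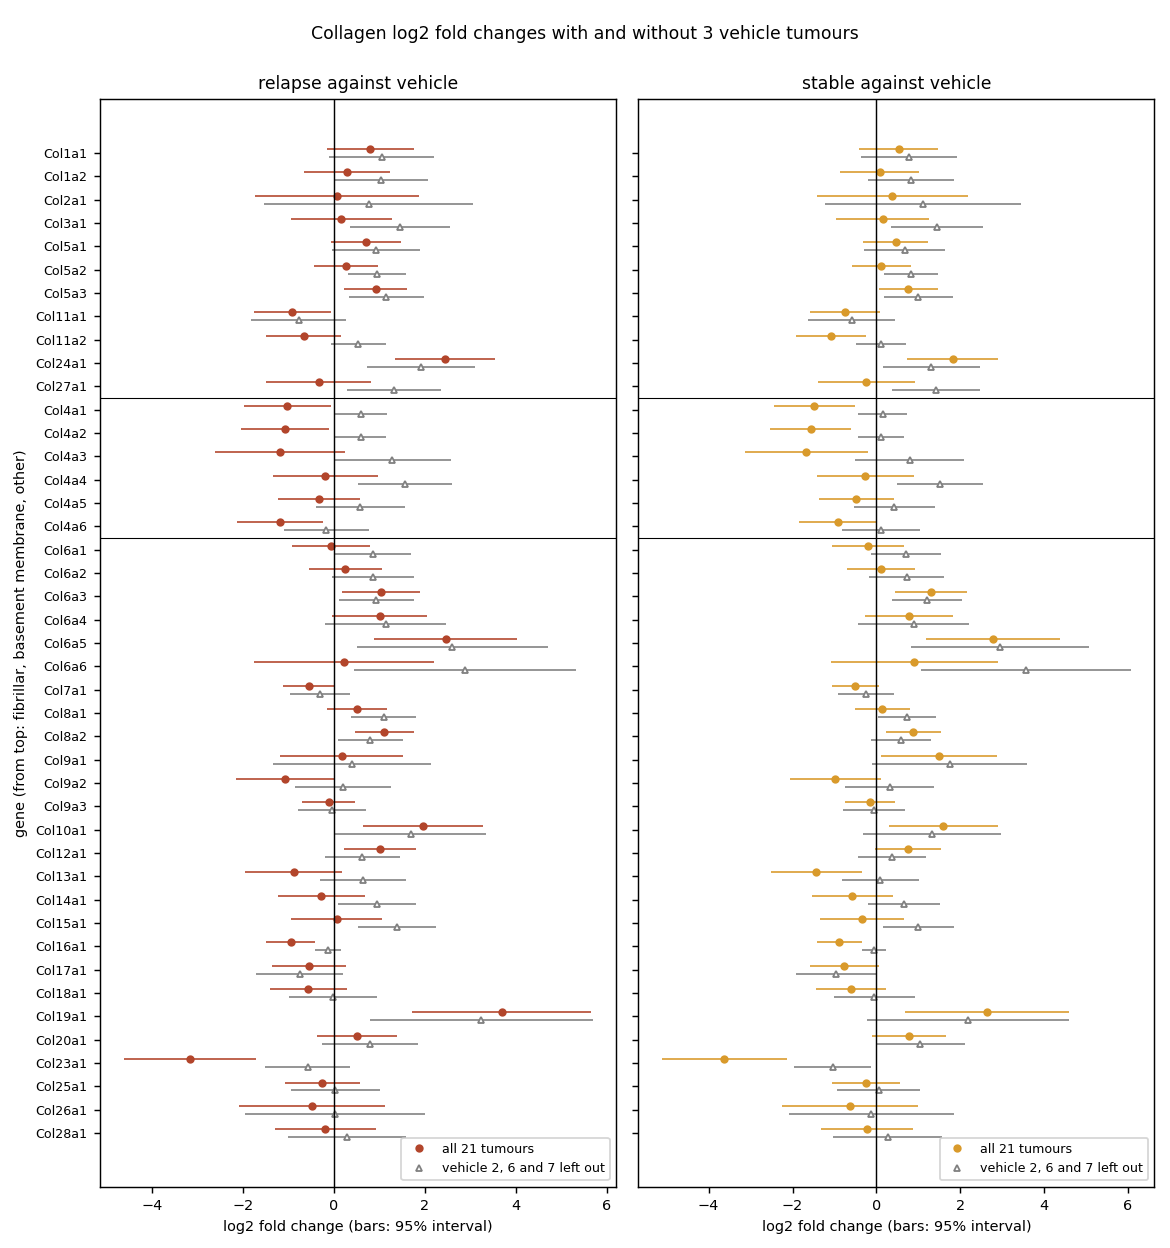
Log2 fold change of 43 collagen genes (points) with 95% intervals (bars), for relapse against vehicle on the left and stable against vehicle on the right. Filled circles use all 21 tumours and open triangles leave out vehicle 2, 6 and 7; the 6 basement membrane genes lie below 0 in the first fit, and of them Col4a6 alone lies below 0 in the second, in relapse, at -0.18.

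Among the fibrillar collagens, the chains of types I, III and V did not pass the test in either comparison. Col1a1, the chain present as a pair in each type I molecule, was at 465, 863 and 2222 CPM in relapse, 292, 483 and 1947 CPM in stable and 221, 486 and 1208 CPM in vehicle tumours (lowest, median and highest of 7, here and below). The relapse tumours were mostly higher, 6 of 7 lying above the vehicle median, but the groups overlapped. The log2 fold change was 0.80 for relapse (95% interval -0.15 to 1.76, adjusted p = 0.266) and 0.53 for stable (-0.42 to 1.48, adjusted p = 0.448). Its partner Col1a2 was at 522, 898 and 2054 CPM in relapse, 409, 514 and 2297 CPM in stable and 289, 813 and 2240 CPM in vehicle tumours. Each group held 1 or 2 tumours of high Col1a2, and the log2 fold changes were 0.29 (adjusted p = 0.73) and 0.077 (adjusted p = 0.926). In the fit that leaves out vehicle 2, 6 and 7 they were 1.05 and 0.78 for Col1a1 (adjusted p = 0.287 and 0.414) and 1.03 and 0.83 for Col1a2 (adjusted p = 0.235 and 0.322).

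Col3a1, whose product makes a homotrimer that co-assembles with type I, was at 492, 1127 and 1770 CPM in relapse, 397, 695 and 2869 CPM in stable and 278, 565 and 2951 CPM in vehicle tumours. The highest vehicle values were those of vehicle 2 and 6, at 2951 and 1441 CPM, and the 4 vehicle tumours outside the set that stood apart lay at 278 to 565 CPM. Its log2 fold changes of 0.16 and 0.15 (adjusted p = 0.879 and 0.872) became 1.45 (interval 0.35 to 2.54, adjusted p = 0.119) and 1.44 (0.35 to 2.54, adjusted p = 0.11) without vehicle 2, 6 and 7. Type V collagen, which sets the width of type I fibrils, is made of Col5a1 and Col5a2. Col5a1 was at 73.9, 147 and 350 CPM in relapse, 73.2, 101 and 298 CPM in stable and 49, 102 and 163 CPM in vehicle tumours. Col5a2 was at 241, 437 and 760 CPM in relapse, 272, 368 and 637 CPM in stable and 164, 336 and 981 CPM in vehicle tumours. Both overlapped between all groups, and none of the 4 log2 fold changes, from 0.12 to 0.71, passed the test (adjusted p from 0.225 to 0.833). They were 0.92 and 0.68 for Col5a1 without vehicle 2, 6 and 7 (adjusted p = 0.265 and 0.399) and 0.95 and 0.82 for Col5a2 (adjusted p = 0.0826 and 0.118).

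Col24a1, a minor fibrillar collagen known from developing bone, rose in both treated groups. It was at 5.75, 10.1 and 42.8 CPM in relapse, 4.43, 9.79 and 14.6 CPM in stable and 0.56, 2.15 and 7.33 CPM in vehicle tumours. All 7 tumours of either treated group lay above the vehicle median, and vehicle 3, at 7.33 CPM, overlapped with both. Against vehicle the log2 difference was 2.44 ± 0.53 (SE; adjusted p = 0.00746) for relapse and 1.82 ± 0.52 (adjusted p = 0.0251) for stable tumours. Vehicle 2, 6 and 7 were the 3 lowest of all 21 tumours, at 1.05, 0.56 and 1.7 CPM. Without them the values were 1.91 (adjusted p = 0.0656) and 1.31 (adjusted p = 0.164), and the stable call was also lost without vehicle 2 or vehicle 7 alone (adjusted p = 0.0504 to 0.0513) and after summing the counts of each title code (adjusted p = 0.136). Of the 12 fibroblast markers, 4 rose and 0 fell in relapse and 3 rose and 0 fell in stable tumours, beside 5.42% and 6.9% of all genes that rose. Their sum was 377, 659 and 1353 CPM in relapse, 377, 481 and 1212 CPM in stable and 251, 477 and 872 CPM in vehicle tumours, none of them was at 0 in all tumours, and their part in the Col24a1 difference was not tested.

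The 5 other fibrillar genes were not called by edgeR with all tumours. Col11a1, a chain of the cartilage-type heterotrimer, had negative log2 fold changes, -0.92 in relapse (adjusted p = 0.147) and -0.75 in stable (adjusted p = 0.213), and Col5a3 positive ones, 0.91 (adjusted p = 0.0854) and 0.76 (adjusted p = 0.131). Against the other 4 vehicle tumours they were -0.78 and -0.59 for Col11a1 (adjusted p = 0.391 and 0.509) and 1.15 and 1.00 for Col5a3 (adjusted p = 0.0996 and 0.134). Col11a1 was called by limma voom with quality weights in both comparisons, and Col5a3 by that fit and by DESeq2 in relapse. Col27a1 was called with quality weights in relapse and Col11a2 by DESeq2 in stable tumours. In vehicle 2, 6 and 7, Col27a1 was at 21.7 to 69 CPM and Col11a2 at 9.01 to 22.4 CPM. The other vehicle tumours lay at 4.07 to 11.1 CPM for Col27a1 and 2.42 to 4.77 CPM for Col11a2. Col2a1, the main collagen of cartilage, was singled out with its values in view. Its levels were 3.83, 8.56 and 124 CPM in relapse, 1.62, 16.4 and 117 CPM in stable and 9.85, 22 and 46.9 CPM in vehicle tumours. Single tumours, relapse 4 and stable 1, held the high values, and its log2 fold change for relapse was 0.055 with relapse 4 and -1.53 without it (adjusted p = 0.975 and 0.203). For stable it was 0.38 with stable 1 and -0.51 without it (adjusted p = 0.797 and 0.698). The values without vehicle 2, 6 and 7 were 0.76 and 1.11 (adjusted p = 0.745 and 0.589).

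The basement membrane collagens gave the clearest dependence on the 3 vehicle tumours. Col4a1 and Col4a2 encode the chains of the common type IV trimer. Col4a1 was at 268, 313 and 815 CPM in relapse, 202, 301 and 350 CPM in stable and 181, 335 and 2008 CPM in vehicle tumours. Within vehicle it was at 2008, 1783 and 769 CPM in tumours 2, 6 and 7 and at 181 to 335 CPM in the other 4, a range that both treated groups overlapped. Its log2 fold change was -1.48 ± 0.47 (adjusted p = 0.0391) in stable and -1.03 ± 0.46 (adjusted p = 0.154) in relapse tumours. Col4a2 was at 181, 218 and 533 CPM in relapse, 150, 191 and 234 CPM in stable and 122, 233 and 1349 CPM in vehicle tumours. It reached 1349, 1184 and 668 CPM in vehicle 2, 6 and 7 and 122 to 233 CPM in the other 4. Its log2 fold change was -1.57 ± 0.47 (adjusted p = 0.0299) in stable and -1.08 ± 0.46 (adjusted p = 0.132) in relapse tumours. Both chains fell in stable tumours in the edgeR fit of all 21 tumours. Without vehicle 2, 6 and 7 the stable values were 0.15 and 0.11 (adjusted p = 0.789 and 0.85) and the relapse values 0.59 and 0.59 (adjusted p = 0.232 and 0.22). The stable call of Col4a1 was also lost without any 1 of vehicle 2, 6 and 7 or stable 2 to 7 (adjusted p = 0.0536 to 0.12), and that of Col4a2 without any 1 of vehicle 2, 6 and 7 or stable 4 and 7 (adjusted p = 0.0502 to 0.0867). Both were lost, for Col4a1 and Col4a2 in this order, after summing the counts of each title code (adjusted p = 0.075 and 0.065), with the code as a random effect (0.184 and 0.151), with quality weights (0.897 and 0.817) and in a fit of stable and vehicle tumours alone (0.0918 and 0.0773). The 3 tumours with high type IV also had the highest basal and myoepithelial marker sums of all 21. Vehicle 2 and 6 had the highest sums of 8 endothelial markers, at 461 and 377 CPM, beside 170 to 321 CPM in relapse and 111 to 280 CPM in stable tumours. Vehicle 7 was at 201 CPM, inside the range of the treated tumours, and the other vehicle tumours at 132 to 175 CPM. The part of these markers in the type IV differences was not tested.

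The promoters of Col4a1 and Col4a2 are shown because these genes lie head to head and their levels moved together from tumour to tumour. Those of Col6a1 and Col6a3, whose chains also join in 1 molecule but did not keep a constant ratio, are shown beside them. This pair was picked with the ratios in view. The log2 ratio of Col6a2 to Col6a1, chains of the same molecule, spanned only 0.96 over all tumours, and the Col6a2 promoter is not shown. The part of the motif matches in any ratio was not tested. Ratios of the other type IV pairs, which also lie side by side, are given below, and the part of gene position was not tested. RefSeq places Col4a1 on the minus strand of chromosome 8 (11198423 to 11312889, GRCm38) and Col4a2 on the plus strand (11312805 to 11449287), so that the gene models overlap at their 5′ ends, and whether the counting used the strand was not stated. The RefSeq promoter table, of build GRCm38.p6, holds windows of 250 bases before to 50 bases after a gene's start for 35 of the 44 collagen genes, 38 windows in all. Those of Col4a1 (chr8:11312777-11313076, minus) and Col4a2 (chr8:11312555-11312854, plus) share 78 bases. The starts that these windows use lie 21 bases apart, and that of Col4a1 lies inside its gene model. Col6a1 (chr10:76725995-76726294, minus) and Col6a3 (chr1:90843922-90844221, minus) lie on different chromosomes. Each window runs 5′ to 3′ on its gene's strand, and capitals mark matches, on either strand, to the GC box core GGGCGG, to CCAAT or to TATAAA.
Col4a1: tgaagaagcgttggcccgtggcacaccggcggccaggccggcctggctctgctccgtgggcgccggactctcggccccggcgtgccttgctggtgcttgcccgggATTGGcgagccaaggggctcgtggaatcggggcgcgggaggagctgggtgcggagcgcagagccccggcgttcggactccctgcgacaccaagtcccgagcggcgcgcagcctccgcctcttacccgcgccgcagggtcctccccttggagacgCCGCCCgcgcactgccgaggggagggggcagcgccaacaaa
Col4a2: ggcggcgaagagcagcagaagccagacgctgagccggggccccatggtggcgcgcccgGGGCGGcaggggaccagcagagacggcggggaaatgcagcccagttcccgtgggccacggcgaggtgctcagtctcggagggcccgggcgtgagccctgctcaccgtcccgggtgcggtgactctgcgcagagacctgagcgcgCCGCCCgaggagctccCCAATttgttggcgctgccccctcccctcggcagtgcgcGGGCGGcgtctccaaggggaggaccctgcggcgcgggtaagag
Col6a1: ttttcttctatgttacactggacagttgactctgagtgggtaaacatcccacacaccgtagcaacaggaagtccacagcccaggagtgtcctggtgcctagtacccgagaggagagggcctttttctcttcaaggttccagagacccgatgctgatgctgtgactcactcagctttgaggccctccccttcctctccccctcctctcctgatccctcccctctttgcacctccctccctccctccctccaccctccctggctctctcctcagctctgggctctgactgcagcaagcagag
Col6a3: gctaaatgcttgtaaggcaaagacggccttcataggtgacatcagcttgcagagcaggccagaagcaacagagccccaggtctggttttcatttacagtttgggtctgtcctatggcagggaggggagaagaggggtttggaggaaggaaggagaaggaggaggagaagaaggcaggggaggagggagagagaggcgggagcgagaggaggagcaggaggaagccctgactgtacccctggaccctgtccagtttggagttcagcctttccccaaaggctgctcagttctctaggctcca
The Col4a1 window held 1 match to GGGCGG and 1 to CCAAT, and the Col4a2 window 3 and 1, with 0 matches to TATAAA in both and no overlapping matches within a window. The Col4a1 match to GGGCGG and the last one of Col4a2 are the same site, in the 78 shared bases. The Col6a1 and Col6a3 windows held 0 matches to any of the 3. Over all 32851 windows of the table, 35.7% held GGGCGG, 37.4% CCAAT and 13.6% TATAAA; over the 38 collagen windows, the shares were 60.5%, 34.2% and 13.2%. The windows cover a short stretch only, and a match is a run of letters and not a site of binding.

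The remaining type IV chains were not called by edgeR, while DESeq2 called Col4a6 in relapse (DESeq2 adjusted p = 0.0461). Col4a3, a chain best known from the kidney filter, was low throughout, with 2 to 75 reads a tumour. It was at 0.225, 0.726 and 0.847 CPM in relapse, 0.0869, 0.359 and 1.13 CPM in stable and 0.0916, 0.435 and 3.5 CPM in vehicle tumours. The 3 highest values were those of vehicle 2, 6 and 7, between 2.34 and 3.5 CPM. Its log2 fold change of -1.18 in relapse and -1.67 in stable (adjusted p = 0.276 and 0.112) became 1.28 and 0.79 (adjusted p = 0.239 and 0.469) without them. Col4a6, which pairs with Col4a5 in the basement membranes of smooth muscle and epithelia, was at 16.2, 109 and 170 CPM in relapse, 56.6, 105 and 222 CPM in stable and 84.5, 143 and 491 CPM in vehicle tumours. Its log2 fold change of -1.19 in relapse (adjusted p = 0.0936) and -0.91 in stable (adjusted p = 0.171) became -0.18 and 0.11 (adjusted p = 0.861 and 0.911). Col4a5, singled out with its values in view, was at 590 CPM in relapse 7 and at 67.5 to 139 CPM in the other relapse tumours.

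**Figure D3:**
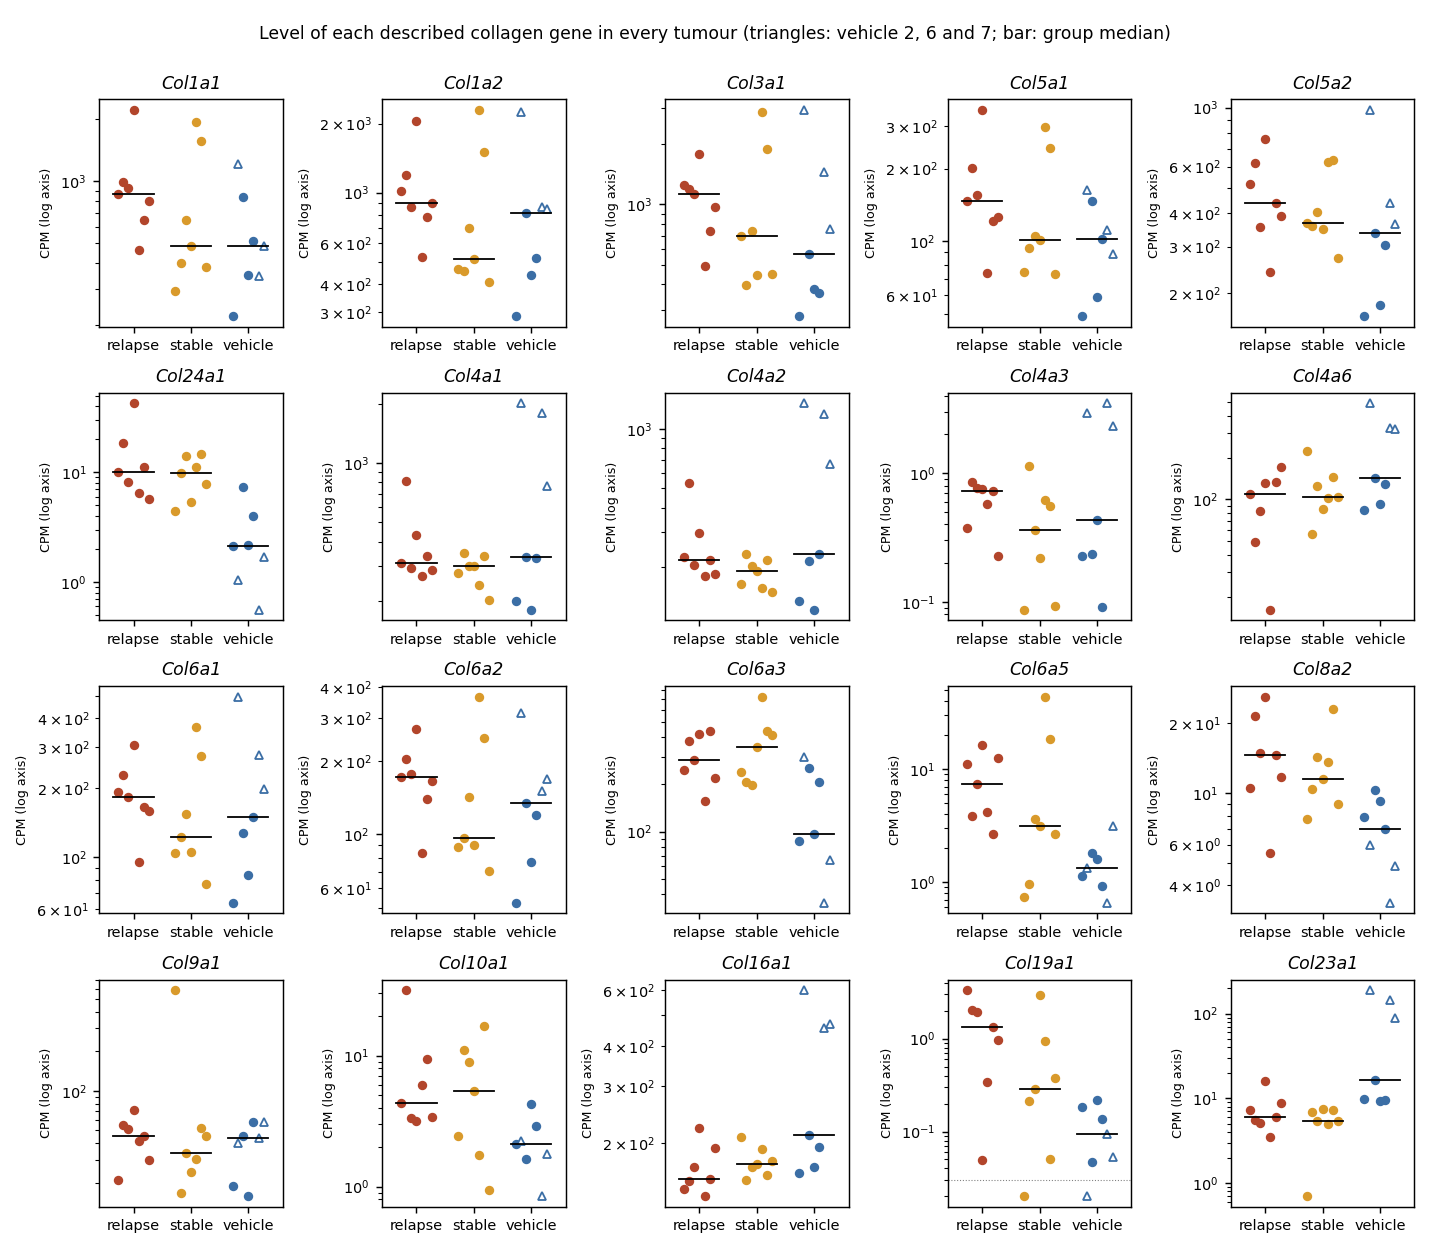
Level of 20 collagen genes in every tumour (CPM on a log axis), with relapse, stable and vehicle from left to right; each point is a tumour, open triangles are vehicle 2, 6 and 7, and the bar is the group median. At Col19a1, points below the dotted line are tumours with 0 reads. The triangles lie above the other vehicle points at Col4a1, Col4a2, Col16a1 and Col23a1 and below them at Col24a1.

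Type VI collagen forms beaded filaments around cells, from the chains of Col6a1, Col6a2 and, to complete the trimer, Col6a3 or one of Col6a4, Col6a5 and Col6a6. Col6a1 was at 95.7, 182 and 307 CPM in relapse, 76.5, 122 and 365 CPM in stable and 63.5, 149 and 495 CPM in vehicle tumours. Col6a2 was at 84, 171 and 271 CPM in relapse, 70.5, 96.8 and 366 CPM in stable and 52.3, 134 and 314 CPM in vehicle tumours. The groups overlapped for both, with log2 fold changes of -0.07 and 0.25 in relapse (adjusted p = 0.932 and 0.719) and -0.21 and 0.12 in stable (adjusted p = 0.762 and 0.864). For Col6a1 the sign was positive without vehicle 2, 6 and 7, at 0.85 and 0.71 (adjusted p = 0.233 and 0.298).

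Col6a3 rose in stable tumours and did not pass in relapse. It was at 156, 288 and 439 CPM in relapse, 198, 346 and 728 CPM in stable and 35, 96.8 and 299 CPM in vehicle tumours. All 7 tumours of each treated group lay above the vehicle median, with an overlap at the top of the vehicle range, in vehicle 2, 3 and 5. On the log2 scale the difference to vehicle was 1.04 ± 0.41 (adjusted p = 0.105) in relapse and 1.30 ± 0.41 (adjusted p = 0.0387) in stable tumours. Without vehicle 2, 6 and 7 it was 0.93 (adjusted p = 0.18) and 1.20 (adjusted p = 0.0829), so that its size changed little while the call was lost. The stable call was also lost after summing the counts of each title code (adjusted p = 0.0593) and without any 1 of stable 4 to 7 or vehicle 1, 4, 6 and 7 (adjusted p = 0.0561 to 0.0817).

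Col6a5, an alternative to the Col6a3 chain, rose in both treated groups from a low level. It was at 2.65, 7.44 and 16.3 CPM in relapse, 0.739, 3.13 and 44 CPM in stable and 0.653, 1.33 and 3.14 CPM in vehicle tumours. All 7 relapse tumours but 5 of 7 stable tumours lay above the vehicle median. On the log2 scale it rose by 2.45 ± 0.76 (adjusted p = 0.042) in relapse and by 2.79 ± 0.77 (adjusted p = 0.0215) in stable tumours, and the values were 2.60 and 2.95 (adjusted p = 0.142 and 0.0941) without vehicle 2, 6 and 7. The stable value rested on stable 5, at 44 CPM, without which it was 1.70 (adjusted p = 0.073). The relapse call was lost without any 1 of relapse 1, 3, 4 and 7 or vehicle 1 to 6 (adjusted p = 0.054 to 0.0846). With counts summed per title code neither was called (adjusted p = 0.115 in relapse and 0.0768 in stable). Its relative Col6a6 was highest in the same tumour, at 38.3 CPM in stable 5 and 0.215 to 12.3 CPM in every other tumour, and was not called. The genes of these chains lie side by side on chromosome 9 and are similar in sequence, and the handling of reads shared by similar genes was not stated in the sources used here.

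Among the network-forming short chains, Col8a2, of the sheet under the corneal endothelium and of vessel walls, rose in relapse tumours. It was at 5.51, 14.6 and 26 CPM in relapse, 7.73, 11.5 and 23.1 CPM in stable and 3.36, 7.01 and 10.3 CPM in vehicle tumours. The log2 fold change was 1.10 ± 0.31 (adjusted p = 0.0266) in relapse and 0.88 ± 0.31 (adjusted p = 0.0588) in stable tumours, with 6 and 7 of 7 tumours above the vehicle median. It was 0.80 and 0.58 without vehicle 2, 6 and 7 (adjusted p = 0.191 and 0.322). The relapse call was also lost without any 1 of relapse 2 and 4 or vehicle 2, 6 and 7 (adjusted p = 0.0546 to 0.0632) and after summing the counts of each title code (adjusted p = 0.125). Col10a1, the collagen of hypertrophic cartilage, was at 3.14, 4.37 and 31.6 CPM in relapse, 0.935, 5.38 and 16.9 CPM in stable and 0.84, 2.1 and 4.27 CPM in vehicle tumours. It rose in relapse by 1.96 ± 0.63 on the log2 scale (adjusted p = 0.0493) and was at 1.59 ± 0.63 in stable (adjusted p = 0.0891). Relapse 2 stood alone at 31.6 CPM. The call sat at the threshold: it was lost in 14 of 21 fits that left out 1 tumour, namely any 1 of relapse 1, 2, 3, 5 and 6, stable 2 to 4, or vehicle 1, 2, 3, 5, 6 and 7 (adjusted p = 0.0528 to 0.184), with the value at 1.13 without relapse 2, and with no filter (adjusted p = 0.0591), after summing the counts of each title code (adjusted p = 0.217) and without vehicle 2, 6 and 7 (adjusted p = 0.231).

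Fibril-associated collagens sit on the surface of banded fibrils. Col16a1 was at 136, 154 and 223 CPM in relapse, 153, 172 and 208 CPM in stable and 161, 212 and 599 CPM in vehicle tumours. Vehicle 2, 6 and 7 reached 599, 456 and 470 CPM, above every other tumour, and the other vehicle tumours lay at 161 to 212 CPM, inside the range of the treated ones. It fell by 0.95 ± 0.26 on the log2 scale in relapse (adjusted p = 0.0213) and by 0.88 ± 0.26 in stable (adjusted p = 0.0267). Without those 3 tumours the values were -0.13 and -0.055 (95% intervals -0.41 to 0.15 and -0.34 to 0.23; adjusted p = 0.624 and 0.844), and without any 1 of them neither call held (adjusted p = 0.0518 to 0.0579 in relapse and 0.0691 to 0.0809 in stable). The stable call was lost after summing the counts of each title code too (adjusted p = 0.057).

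Col19a1, a fibril-associated collagen found in basement membrane zones, was nearly absent from vehicle tumours. It had 71, 46, 41, 1, 7, 26 and 17 reads in relapse 1 to 7, 0, 4, 4, 54, 17, 1 and 8 in stable 1 to 7, and 4, 0, 1, 5, 3, 2 and 1 in vehicle 1 to 7. In relapse 6 of 7 tumours exceeded every vehicle tumour, and relapse 4, with 1 read, did not. Its log2 fold change was 3.69 ± 0.94 (adjusted p = 0.0167) in relapse and 2.64 ± 0.94 (adjusted p = 0.0619) in stable tumours; with so few vehicle reads its size depends on the prior count of the fit. The relapse call held in all 21 fits that left out 1 tumour. It was lost after summing the counts of each title code (adjusted p = 0.0701) and without vehicle 2, 6 and 7 (3.24, adjusted p = 0.119). It was also lost in limma voom with quality weights (adjusted p = 0.111) and with the code as a random effect (adjusted p = 0.0655). No vehicle tumour exceeded 0.218 CPM, and Col19a1 passed the filter on low counts only through treated tumours, where it was high. In the fit of relapse and vehicle tumours alone it was not tested. The stable value was 1.49 without stable 4 (adjusted p = 0.261). The summed level of 9 skeletal muscle markers was 2254 to 7435 CPM in relapse tumours other than relapse 4, which had 187 CPM, 218 to 4292 CPM in stable and 211 to 545 CPM in vehicle tumours. Among stable tumours, the marker sum was highest in stable 5 (4292 CPM, 17 reads of Col19a1). Stable 4 came next (924 CPM, 54 reads), and both had the most Col19a1 reads of the group. Stable 6 was at 874 CPM with 1 read. Of the 9 markers 8 rose in relapse and 4 in stable, beside 5.42% and 6.9% of all genes; their part in the Col19a1 difference was not tested.

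Col9a1, the chain of a cartilage collagen, whose gene neighbours Col19a1 on chromosome 1, showed the largest difference between relapse and stable tumours among the other collagens. It was at 21, 45.1 and 71.4 CPM in relapse, 16.8, 33.5 and 586 CPM in stable and 15.7, 43.6 and 58.3 CPM in vehicle tumours. The value of 586 CPM was that of stable 1, and the next stable tumour was at 52.5 CPM. The log2 fold change of stable against vehicle was 1.50 (adjusted p = 0.127) with stable 1 and -0.24 (adjusted p = 0.627) without it. That of relapse against stable was -1.33 (adjusted p = 0.99) and 0.41 (adjusted p = 1). Leaving out vehicle 2, 6 and 7, the values against vehicle were 0.39 in relapse and 1.75 in stable (adjusted p = 0.833 and 0.246). Col12a1, which coats type I fibrils and was singled out with its values in view, was at 758, 1702 and 4387 CPM in relapse, 820, 1642 and 2497 CPM in stable and 321, 782 and 1856 CPM in vehicle tumours. Its log2 fold changes of 1.01 and 0.75 did not pass the test (adjusted p = 0.0914 and 0.182), and vehicle 2 and 6 were its lowest tumours, at 321 and 462 CPM. With the 3 tumours that stood apart left out, they were 0.62 and 0.37 (adjusted p = 0.39 and 0.612).

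Col23a1, a collagen that spans the cell membrane, had the largest fall of the family. It was at 3.53, 6.07 and 16 CPM in relapse, 0.695, 5.47 and 7.47 CPM in stable and 9.19, 16.5 and 190 CPM in vehicle tumours. Stable and vehicle tumours did not overlap, though the share of all genes tested without overlap was not counted. Of the relapse tumours, relapse 4 alone, at 16 CPM, reached the vehicle range. The log2 fold change was -3.17 ± 0.70 (adjusted p = 0.008) in relapse and -3.63 ± 0.72 (adjusted p = 0.00345) in stable tumours, and both calls held in all 21 fits that left out 1 tumour and after summing the counts of each title code. With quality weights neither was called (adjusted p = 0.123 and 0.0684), and the relapse call was lost under the random effect of title code (adjusted p = 0.0804). Vehicle 2, 6 and 7 were at 190, 146 and 90 CPM and the other vehicle tumours at 9.19 to 16.5 CPM. Without the 3 the log2 fold changes were -0.58 (95% interval -1.51 to 0.34, adjusted p = 0.48) and -1.04 (-1.97 to -0.12, adjusted p = 0.164). Col17a1, the membrane-spanning collagen of hemidesmosomes, was likewise singled out with its values in view. It was at 77.3, 148 and 225 CPM in relapse, 9.95, 133 and 202 CPM in stable and 93.8, 198 and 318 CPM in vehicle tumours, and was not called by edgeR. Set against vehicle 1, 3, 4 and 5 alone, its log2 fold changes were -0.75 and -0.97 (adjusted p = 0.361 and 0.209). Stable 1, at 9.95 CPM, was also the lowest tumour for Col23a1, at 0.695 CPM, and for the basal marker sum, at 226 CPM.

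The 13 remaining collagens outside the fibrillar and basement membrane classes were not called by edgeR with all tumours in any comparison. In stable tumours, DESeq2 called Col13a1, and limma voom with quality weights called Col6a4. There edgeR also called Col13a1 without vehicle 1, 4 or 5 and Col18a1 without stable 1. Col15a1 and Col18a1, whose products sit in basement membrane zones and release endostatin-type fragments, had log2 fold changes of 0.059 and -0.57 in relapse (adjusted p = 0.951 and 0.387) and of -0.35 and -0.61 in stable tumours (adjusted p = 0.657 and 0.315). Without vehicle 2, 6 and 7, Col15a1 was at 1.39 and 0.99 (adjusted p = 0.0661 and 0.151) and Col18a1 at -0.024 and -0.046 (adjusted p = 0.982 and 0.965). Col7a1, which forms the anchoring fibrils under epithelia, was at 45.7, 58.5 and 91.3 CPM in relapse, 28.6, 62 and 110 CPM in stable and 42.8, 108 and 139 CPM in vehicle tumours, with overlapping groups (-0.56 and -0.50, adjusted p = 0.183 and 0.215; -0.32 and -0.25 without vehicle 2, 6 and 7, adjusted p = 0.615 and 0.678). Col14a1, a fibril-associated collagen, was at 97.6, 161 and 331 CPM in relapse, 71.7, 122 and 300 CPM in stable and 50.4, 178 and 552 CPM in vehicle tumours, also overlapping (-0.28 and -0.57, adjusted p = 0.736 and 0.415; 0.95 and 0.66 without vehicle 2, 6 and 7, adjusted p = 0.193 and 0.344). Col13a1, which spans the membrane, was at 1.88, 3.82 and 10.7 CPM in relapse, 1.56, 2.63 and 5.55 CPM in stable and 1.83, 4.5 and 19.5 CPM in vehicle tumours (-0.89 and -1.43, adjusted p = 0.273 and 0.0681). Its sign was positive without vehicle 2, 6 and 7, at 0.64 and 0.096 (adjusted p = 0.446 and 0.922). Col6a4, Col8a1, Col9a2, Col9a3, Col20a1, Col25a1, Col26a1 and Col28a1 likewise overlapped between all groups, and Col26a1 was at 0 to 3.41 CPM and Col6a4 at 0.0869 to 2.74 CPM in single tumours.

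Between relapse and stable tumours 0 of the 43 collagen genes were called, and 0 had an unadjusted p under 0.05, beside 0% of all genes tested, of which 751 had an unadjusted p under 0.05. DESeq2 also called 0 members. The median log2 fold change of the family was 0.14, with 30 genes above 0, beside -0.01 over all genes tested. The 95% intervals ran from -2.7 to 2.75 over the 43 genes and lay within a 2-fold change in both directions for 9 of them, so a difference of moderate size was not detectable for the others. Among the main chains, the interval was -0.68 to 1.22 for Col1a1, -1.10 to 1.12 for Col3a1, -0.51 to 1.41 for Col4a1 and -1.11 to 0.58 for Col6a3. In the comparisons with vehicle the interval lay within a 2-fold change for 3 of the 36 genes not called in relapse and for 4 of the 36 not called in stable.

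Since collagen molecules are built from fixed sets of chains, the log2 ratio of counts per kilobase, with 0.5 added to each count, was formed for 13 pairs of chains that share a molecule or a fibril. The ratio of Col4a1 to Col4a2 was the most constant: it spanned 0.56 over all 21 tumours, while the log2 level of either chain, whose overlapping promoters are printed above, spanned 3.47. Its group means were 0.52 ± 0.062 in relapse, 0.56 ± 0.10 in stable and 0.48 ± 0.15 in vehicle tumours (SD, n = 7 each), and vehicle 7 was lowest at 0.16. Col6a2 to Col6a1, from genes that lie apart on chromosome 10, spanned 0.96. Col4a3 to Col4a4, whose gene models overlap on chromosome 1, spanned 5.78, with few reads of either. Col4a5 to Col4a6, from neighbours on chromosome X, spanned 3.22. The part of gene position in these ratios was not tested. Col6a3 to Col6a1 spanned 5.42, from -4.49 in vehicle 6 to 0.94 in stable 7. It was at -0.82 ± 0.35 in relapse, -0.34 ± 0.71 in stable and -1.96 ± 1.42 in vehicle tumours, where tumours 2, 6 and 7 lay at -2.23, -4.49 and -3.10 and the other 4 between -1.30 and -0.49. The difference to vehicle was 1.14 in relapse and 1.61 in stable (two-sided exact permutation p = 0.0571 and 0.0105, Benjamini-Hochberg adjusted over 39 tests 0.308 and 0.205, smallest possible p = 0.000583), and without the 3 tumours 0.15 and 0.63 (exact permutation p = 0.558 and 0.136). Col6a3 to Col6a2 gave 1.44 in stable (exact permutation p = 0.00874, adjusted 0.205). The ratio of Col1a1 to Col1a2 was also low in vehicle 2, 6 and 7, at 0.20, -0.23 and 0.29, and lay between 0.42 and 1.20 in the other 18 tumours. Its difference to vehicle was 0.40 in relapse and 0.34 in stable (exact permutation p = 0.0711 and 0.128, adjusted 0.308 and 0.37). None of the 39 ratio tests passed after adjustment.

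**Figure D4:**
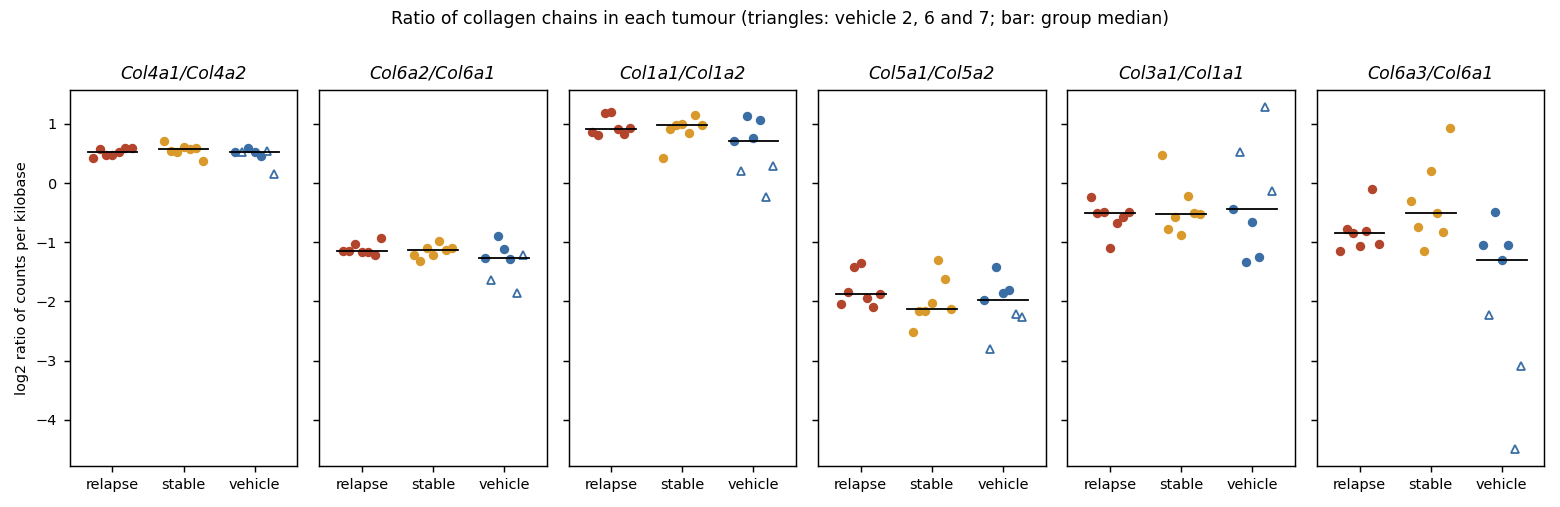
Log2 ratio of counts per kilobase of 2 chains in each tumour for 6 of the 13 chain pairs, with relapse, stable and vehicle from left to right; open triangles are vehicle 2, 6 and 7 and the bar is the group median. Col4a1 to Col4a2 stays between 0.16 and 0.72 in all tumours, while Col6a3 to Col6a1 reaches -4.49 in vehicle 6.

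The genes that modify, fold and crosslink collagen were read from a list of 30, all of which were tested. Against vehicle, 3 rose and 1 fell in relapse tumours, and 2 rose and 2 fell in stable tumours. This is 13.3% of the list in each comparison, beside 11.2% and 15.1% of all genes tested, and the median log2 fold changes were -0.18 and -0.33, beside -0.02 and -0.0048 over all genes. The 3 that rose in relapse were lysyl oxidases, which crosslink collagen. Lox was at 44.8, 112 and 342 CPM in relapse, 92, 111 and 186 CPM in stable and 24.2, 57.9 and 100 CPM in vehicle tumours, and its log2 fold change was 1.29 ± 0.38 in relapse (adjusted p = 0.0316) and 1.00 ± 0.37 in stable tumours (adjusted p = 0.076). Loxl1 was at 10, 24.9 and 36.9 CPM in relapse, 10.1, 13.8 and 32.1 CPM in stable and 6.13, 10.4 and 20.6 CPM in vehicle tumours, with 1.15 ± 0.32 in relapse (adjusted p = 0.027) and 0.63 ± 0.32 in stable tumours (adjusted p = 0.187). Loxl4 was at 8.82, 15.1 and 28.4 CPM in relapse, 9.25, 16.2 and 21.2 CPM in stable and 2.22, 7.36 and 14.1 CPM in vehicle tumours and rose in both, by 1.11 ± 0.34 (adjusted p = 0.0421) and 1.03 ± 0.34 (adjusted p = 0.0481). All 3 overlapped with vehicle. Lox, without vehicle 2, 6 and 7, was at 0.92 and 0.63 (adjusted p = 0.198 and 0.361) and Loxl4 at 1.16 and 1.08 (adjusted p = 0.0963 and 0.108). None of these calls was kept after summing the counts of each title code, where the adjusted p was 0.132 for Lox, 0.0851 for Loxl1, and 0.11 and 0.15 for Loxl4 in relapse and stable tumours. The part of the fibroblast markers, of which 4 rose in relapse and 3 in stable tumours, was not tested here either.

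Plod3, a lysyl hydroxylase, was at 54.8, 64 and 78.1 CPM in relapse, 59.1, 61.3 and 93.3 CPM in stable and 46, 54.4 and 59.7 CPM in vehicle tumours, and rose in stable tumours by 0.33 ± 0.11 on the log2 scale (adjusted p = 0.0453). P3h4, a partner of the prolyl and lysyl hydroxylases in the endoplasmic reticulum, was at 6.49, 8.97 and 14 CPM in relapse, 5.16, 6.9 and 9 CPM in stable and 8.01, 14.3 and 26.8 CPM in vehicle tumours. It fell in stable tumours by 1.24 ± 0.26 (adjusted p = 0.00512) and was at -0.70 ± 0.26 in relapse (adjusted p = 0.0835). Colgalt2, which adds galactose to hydroxylysine of collagen, was at 1.11, 2.77 and 4.19 CPM in relapse, 1.61, 2.1 and 6.82 CPM in stable and 2.05, 4.83 and 39 CPM in vehicle tumours, and fell by 2.31 ± 0.62 in relapse (adjusted p = 0.0219) and by 2.33 ± 0.63 in stable tumours (adjusted p = 0.0192). Without vehicle 2, 6 and 7 the list's medians were 0.28 in both comparisons, and Loxl1 in relapse was the 1 call (1.45, adjusted p = 0.0478). There Colgalt2 was at -0.10 and -0.11 (adjusted p = 0.918 and 0.902), P3h4 at -0.61 in stable (adjusted p = 0.104) and Plod3 at 0.31 in stable (adjusted p = 0.169). After summing the counts of each title code, Plod3 and Colgalt2 in stable tumours were not called (adjusted p = 0.235 and 0.0646). Most of these calls also ended when a single tumour was left out. This held for Lox without relapse 2 or 4 or vehicle 2, 6 or 7 (adjusted p = 0.0587 to 0.0858), for Loxl1 without relapse 2 or 4 or vehicle 7 (0.0522 to 0.0559), and for Colgalt2 without vehicle 2 or 6 (0.0585 to 0.0623 in relapse and 0.0511 to 0.0553 in stable). It held for Loxl4 in relapse without relapse 1, 2, 4, 5 or 6, stable 2 or 4, or vehicle 3, 4, 6 or 7 (0.0505 to 0.0948), and in stable without relapse 1, 2, 4 or 6, stable 2 to 7, or vehicle 3, 4, 6 or 7 (0.0504 to 0.0889). It held for Plod3 without relapse 3, 5, 6 or 7, stable 1 to 4, 6 or 7, or vehicle 1, 2 or 4 to 7 (0.0518 to 0.114), whereas the P3h4 call was kept in all 21 such fits.

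Of 8 small leucine-rich proteoglycans that bind collagen fibrils, 7 were tested, of which 2 were called in relapse and 3 in stable tumours (28.6% and 42.9%, beside 11.2% and 15.1% of all genes). Aspn (asporin) rose in both treated groups: it was at 15.3, 48.1 and 96.5 CPM in relapse, 31.2, 36.4 and 86.6 CPM in stable and 12.5, 15.9 and 30.9 CPM in vehicle tumours. Stable and vehicle tumours did not overlap, by a narrow margin (31.2 against 30.9 CPM), and the share of all genes without overlap was not counted. The log2 fold change was 1.60 ± 0.32 in relapse (adjusted p = 0.00562) and 1.40 ± 0.32 in stable tumours (adjusted p = 0.00875), and 1.81 and 1.61 without vehicle 2, 6 and 7 (adjusted p = 0.0249 and 0.0262). Both calls held in all 21 fits that left out 1 tumour and were lost after summing the counts of each title code (adjusted p = 0.0556 and 0.0948). The part of the fibroblast markers, whose counts are given with Col24a1, was not tested. Fmod (fibromodulin) was at 10.3, 19.8 and 55.2 CPM in relapse, 7.06, 12.7 and 20.8 CPM in stable and 3.79, 14.4 and 575 CPM in vehicle tumours. It fell by 2.93 ± 0.93 in relapse (adjusted p = 0.0453) and by 4.02 ± 0.97 in stable tumours (adjusted p = 0.0113), and was at 1.73 and 0.65 without the 3 vehicle tumours (adjusted p = 0.0627 and 0.449). The relapse call of Fmod was lost without any 1 of the relapse tumours, stable 2, 3, 4 or 6, or vehicle 2, 6 or 7 (adjusted p = 0.0514 to 0.101), and under the random effect neither Fmod call was kept (adjusted p = 0.625 and 0.306). Dcn (decorin) was at 99.6, 175 and 332 CPM in relapse, 50.2, 146 and 521 CPM in stable and 85, 115 and 2267 CPM in vehicle tumours. It fell in stable tumours by 2.23 ± 0.75 (adjusted p = 0.0485) and was at 0.94 without vehicle 2, 6 and 7 (adjusted p = 0.257). That call was also lost without any 1 of the relapse tumours, stable 1 to 4, 6 or 7, or vehicle 2, 6 or 7 (adjusted p = 0.0541 to 0.117), after summing the counts of each title code (0.134), with the code as a random effect (0.25), with upper quartile factors (0.0591) and with no filter (0.0563). The 7 genes had median log2 fold changes of -0.52 in relapse and -1.0 in stable tumours, and 1.09 and 0.65 without the 3. Without the 3, Aspn alone was called in each comparison (14.3% of the 7, beside 3.28% and 5.27% of all genes). Of 9 collagen receptors, such as integrin chains and discoidin domain receptors, 8 were tested and 0 were called by edgeR in either comparison, with medians of 0.019 and -0.13. Without the 3 the receptor medians were 0.39 and 0.23, again with 0 called.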

How the data were processed

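RNA of ground frozen tumours (RNeasy Plus) went into TruSeq stranded mRNA libraries that gave single-end reads of 50 bases (HiSeq 2500), per the labels' protocols. The submitters' processing notes name STAR 2.5.2a, SAMtools 1.3.1, Picard 2.9.2, edgeR and build mm10. Counting tool, annotation, strand setting and the treatment of shared reads: not given in the sources used here. Raw counts per gene were deposited by the authors with Entrez IDs, symbols and gene widths; 10202 of 24028 lines carried an extra leading cell, so each was read from its last 25 cells. A symbol was missing for 14 genes, and 1175 genes had no read in any tumour.

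Groups were taken from the sample labels. edgeR 4.0.16 (R 4.3.3) fitted all 21 tumours with filterByExpr by group, TMM factors and the quasi-likelihood F test, and p-values were adjusted by Benjamini-Hochberg over 15792 genes, at a threshold of 0.05. The ± values of fold changes are standard errors, and those of levels and ratios are standard deviations. DESeq2 1.42.0 and limma 3.58.1 served as alternatives, next to other scalings, no filter, each tumour left out, counts summed per title code, and vehicle 2, 6 and 7 left out. The edgeR step was tested on simulated counts. Members, classes and lists were chosen with earlier results of these data known. Full values are given for the main chains of types I, III, IV, V and VI, for every called member and for the member of largest change per class and comparison, and for up to 4 called genes per other list; Col2a1, Col4a5, Col12a1 and Col17a1 were added after their values were seen.

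The meaning of the codes in the sample titles is not given: relapse tumours carry 7 codes, stable tumours 4 and vehicle tumours 3, and 2 codes occur in both treated groups. If a code marks an animal, tumours share animals; p-values then measure only the spread between tumours. No 2 tumours agreed within counting noise. Positions and promoter sequences are RefSeq's for GRCm38.p6. Total counts are given with the results; genes below 1 CPM rest on few reads and are measured less precisely.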

Additional observations from a re-analysis of the deposited data

Results flagged for a closer look

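In 25 of 138 groups of 7 tumours, 1 tumour lay far from the rest. Its gap to the nearest neighbour exceeded Dixon's 95% critical share of the group's whole range. For normally distributed values chance gives about 1 in 20 groups. Levels were taken here as CPM without logarithms, and Col2a1, Col4a5 and Col12a1 were added after their values were seen. The genes are also not independent of each other, so 25 of 138 cannot be set against 1 in 20. Relapse 4 stood alone in relapse for Col1a1 at 2222 CPM (next 986), Col2a1 at 124 CPM (next 15.2), Col24a1 at 42.8 CPM (next 18.7), Col12a1 at 4387 CPM (next 1919) and Col23a1 at 16 CPM (next 8.74). Relapse 2 did so for Col4a1 at 815 CPM (next 432), Col4a2 at 533 CPM (next 299) and Col10a1 at 31.6 CPM (next 9.44). Relapse 7 did so for Col4a5 at 590 CPM (next 139).

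In the stable group, stable 5 stood alone for Col6a5 at 44 CPM (next 18.5), Colgalt2 at 6.82 CPM (next 3.02) and Dcn at 521 CPM (next 236). Stable 1 stood alone for Col9a1 at 586 CPM (next 52.5), Plod3 at 93.3 CPM (next 67.2) and, as the lowest, Col23a1 at 0.695 CPM (next 4.92). Stable 6 did so for Col8a2 at 23.1 CPM (next 14.3), and stable 4 for Col19a1 at 2.97 CPM (next 0.95). In vehicle, tumour 2 stood alone for Col1a2 at 2240 CPM (next 868), Col5a2 at 981 CPM (next 438) and Aspn at 30.9 CPM (next 18.5).

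Among the log2 chain ratios, Col1a1 to Col1a2 was 0.42 in stable 1 (next 0.85), Col4a1 to Col4a2 was 0.16 in vehicle 7 (next 0.46), Col6a3 to Col6a1 was -0.097 and Col6a3 to Col6a2 was 1.12 in relapse 6 (next -0.77 and 0.37), and Col9a3 to Col9a2 was 4.64 in relapse 7 (next 2.23).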

How the results depend on the processing

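Against 7 collagen genes called in relapse and 7 in stable tumours (beside 11.2% and 15.1% of all genes), limma voom with quality weights called 5 and 5 (13.1% and 19% of all genes), with a random effect of title code 3 and 3 (8.14% and 11.2%), a fit of only the groups compared 5 and 2 (10.6% and 6.33%), a fit with the replicate number as a block 2 and 2 (6.25% and 7.92%), counts summed per title code 3 and 1 (5.87% and 3.64%) and DESeq2 10 and 12 (16.4% and 20.6%). Without vehicle 2, 6 and 7 the counts were 0 and 0 (3.28% and 5.27%), and with summing as well 0 and 0 (1.11% and 1.06%). Under the block the calls were Col19a1 and Col24a1 in relapse and Col23a1 and Col24a1 in stable tumours; Col23a1 in relapse had an adjusted p of 0.0562 and Dcn in stable 0.281. Leaving out single tumours gave 3 to 7 in relapse (3 without vehicle 6; 7.28% to 16.8% of all genes) and 2 to 10 in stable (2 without vehicle 7, 10 without stable 1; 9.25% to 20.6%). Relapse against stable gave 0 in every fit. What the replicate numbers stand for is not stated, and whether they mark pairs was not settled. Deviations from the group means correlated over 0.1 in 3 of 21 same-numbered pairs and under -0.1 in 8, from -0.258 to 0.358. The sign changes listed here are those of the genes chosen for full values. Other members turned too, among them Col13a1 and Col14a1 without vehicle 2, 6 and 7. Of the chosen genes, signs turned without vehicle 2, 6 and 7 (relapse, then stable) for Col4a1 (0.59, 0.15), Col4a2 (0.59, 0.11), Col4a3 (1.28, 0.79), Col4a5 (0.58, 0.42), Col6a1 (0.85, 0.71) and Fmod (1.73, 0.65), and in stable alone for Col4a6 (0.11) and Dcn (0.94). With summing as well they were 0.55, 0.53, 1.37 and 0.76, 0.53 and 0.41, 0.80 and 0.77, and 1.67 and 0.47 for Col4a1 and Col4a2 (relapse), Col4a3, Col4a5, Col6a1 and Fmod, and in stable 0.075 for Col4a6, 0.092 for Colgalt2 and 1.12 for Dcn. With quality weights they turned for Col2a1 (-0.51, -0.47), Col4a3 (1.06, 0.52), Col6a1 (0.56, 0.21) and Fmod (0.88, 0.079), in relapse for Col4a1 (0.12), Col4a2 (0.098) and Col4a5 (0.037), in stable for Col9a1 (-0.18) and Dcn (0.19), and for Col9a1 between relapse and stable (0.46). With the random effect and under the block, Col2a1 was at -0.91 and -0.64, and at -0.87 and -0.30, and Col6a1 in relapse at 0.16 and 0.18. Upper quartile factors gave Col6a1 in relapse 0.0068, and DESeq2 gave Col9a1 -0.20 in stable and 0.37 between relapse and stable. Leaving out single tumours also turned signs, with ranges for Col1a2 (-0.35 to 0.52), Col3a1 (-0.32 to 0.76), Col5a2 (-0.018 to 0.53), Col6a1 (-0.51 to 0.20), Col6a2 (-0.24 to 0.42), Col2a1 (-0.51 to 0.69) and Col9a1 (-0.24 to 1.71) in stable, Col3a1 (-0.022 to 0.76), Col6a1 (-0.25 to 0.33) and Col2a1 (-1.53 to 0.29) in relapse, and Col9a1 between them (-1.53 to 0.41). Chain ratio differences without vehicle 2, 6 and 7, chosen after seeing the data, turned for Col3a1 to Col1a1 (0.34, 0.49), Col5a1 to Col5a2 (-0.027, -0.22), Col8a1 to Col8a2 (0.33, 0.15) and Col9a3 to Col9a2 (-0.35, -0.46), in relapse for Col4a1 to Col4a2 (-0.0022), and in stable for Col1a1 to Col1a2 (-0.02) and Col6a2 to Col6a1 (-0.011). The causes were not tested beyond the tumours each fit leaves out. Depth limits Col19a1, Col4a3, Col4a4, Col6a4 and Col26a1, which have few reads.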
